A study of Mus musculus with 9 samples.

Results

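The 9 genes described here, Ggt1, Ass1, Slc4a4, Chdh, Lrp2, Cubn, Slc34a1, Anpep and Dpp4, are genes of the kidney proximal tubule, and they were chosen by name from 57010 genes in the count table. They were followed in primary cultures of kidney cells from wild-type mice. Minced kidneys were digested with Liberase and DNase I, and the resulting cells and tubule pieces were grown in DMEM with 10% serum. The cultures had a medium change at 48 h, 3 further days of growth, then trypsin and 24 h in 6-well plates before treatment. Each of 3 groups had 3 libraries of total RNA taken at 6 h. The first received PBS, the second TNF at 20 ng/mL, and the third the same TNF dose together with ACHP, which blocks NF-kB signalling, at 1 µM. No group received ACHP alone and no library of fresh kidney was compared, so "retained" and "low" below describe the level in culture relative to other genes of the same libraries. All groups are mixed cultures of digested whole kidney. Strain and age are not given in the sources used here. Nor do these say whether replicates came from separate animals, and p-values measure only the spread between these libraries.

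The proximal tubule reclaims most of what the glomerulus filters. Its brush border carries peptidases and transporters, its apical surface takes up filtered protein through the receptors megalin and cubilin, and its basolateral membrane returns bicarbonate to the blood. Proximal tubule cells are known to lose many of these functions after injury and in culture, and TNF is a cytokine that signals through NF-kB.

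Total counts per library ran from 14194295 to 20892176. Vcam1, the adhesion gene the series is about, averaged 19.2 CPM in PBS, 92.8 CPM with TNF and 21.1 CPM with TNF and ACHP. Levels within a library are given as CPM (counts scaled to the library size, with TMM factors) and, for comparison between genes, as CPM per kb of exon. Some libraries carried neural transcripts: a list of 20 neuron genes summed to 35.5, 151 and 125 CPM in PBS replicates 1, 2 and 3, to 70.0, 106 and 88.8 CPM with TNF, and to 32.2 to 35.7 CPM with TNF and ACHP. PBS replicates 2 and 3 and all TNF libraries thus stood apart from the other 4 libraries, and results are also given with a term for this difference where it ended a call.

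In the PBS cultures the 9 genes spanned a wide range, from Ass1 among the most abundant transcripts down to a single read of Slc34a1. Ass1, Slc4a4 and Ggt1 lay above the median of the 14747 genes tested, which was 4.67 CPM per kb (quartiles 1.22 and 13.2). Chdh lay between the lower quartile and the median. Dpp4, Cubn, Lrp2 and Anpep lay below the lower quartile, although each gave reads in all 9 libraries, and Slc34a1 was at the limit of detection. Neighbours in this order did not overlap between PBS libraries, with the exception of Cubn and Lrp2. The order of the means was the same in all 3 groups.

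**Figure D1:**
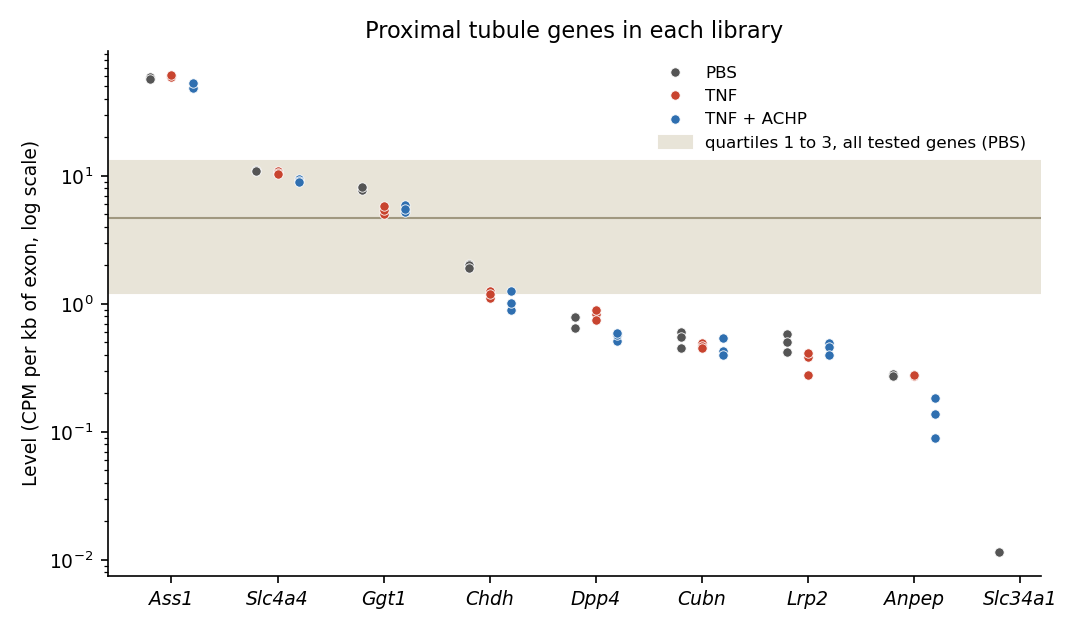
Level of each gene in CPM per kb of exon (log axis), with 1 point per library and the 3 groups side by side; the shaded band and line are the quartiles and the median of the 14747 tested genes in PBS. Ass1 lies near 58.5 and Anpep near 0.277 in PBS, and the libraries in which Slc34a1 had 0 reads are not drawn.

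Of the enzymes, Ass1 (argininosuccinate synthase, which makes the direct precursor of arginine; ENSMUSG00000076441, GRCm39 chromosome 2, 31360219 to 31410684, plus strand) had the highest level. It gave 58.2, 59.6 and 57.7 CPM per kb in the PBS replicates, a mean of 58.5 ± 0.97 (SD, n = 3) that exceeded 95.4% of tested genes. Ggt1 (gamma-glutamyl transferase, the brush border enzyme that opens the breakdown of glutathione; ENSMUSG00000006345, chromosome 10, 75397438 to 75422034, plus strand) had 7.99 ± 0.23 CPM per kb (SD, n = 3). Chdh (choline dehydrogenase, the mitochondrial enzyme that takes choline towards betaine; ENSMUSG00000015970, chromosome 14, 29730980 to 29762484, plus strand) had 2.00 ± 0.090 CPM per kb (SD, n = 3). The level of Ass1 was therefore 7.31 times that of Ggt1 and 29.3 times that of Chdh. Of the Chdh exon length, 9.47% is shared with Cacna1d, where reads were not counted.

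Of the transporters, Slc4a4 (the basolateral sodium bicarbonate cotransporter NBCe1; ENSMUSG00000060961, chromosome 5, 89034345 to 89387512, plus strand) was retained and Slc34a1 was not. Slc4a4 had 11.1, 10.9 and 10.8 CPM per kb in the PBS replicates, with an SD of 0.15 (n = 3) and a mean above 70.9% of tested genes. Slc34a1 (the apical sodium phosphate cotransporter NaPi-IIa; ENSMUSG00000021490, chromosome 13, 55546000 to 55563405, plus strand) gave 1 read in PBS replicate 3 and 0 reads in each of the other 8 libraries. A count of 0 allows up to 3 reads, or 0.0306 to 0.0452 CPM per kb depending on the library, by counting error only. Pfn3 overlaps 11.7% of the Slc34a1 exon length, and reads there were not assigned. Slc34a1 did not pass the filter on low counts and has no test.

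The endocytic receptors were low and close to each other. Cubn (cubilin, which binds vitamin B12 with intrinsic factor, albumin and other filtered proteins; ENSMUSG00000026726, chromosome 2, 13281149 to 13496624, minus strand) had 0.599, 0.548 and 0.456 CPM per kb in the PBS replicates. Lrp2 (megalin, its large partner receptor; ENSMUSG00000027070, chromosome 2, 69254684 to 69416409, minus strand) had 0.578, 0.423 and 0.508 CPM per kb. These ranges overlapped, and the means of 0.534 and 0.503 exceeded 14.4% and 13.8% of tested genes. Both are long transcripts, so that 126 to 147 reads of Cubn and 127 to 157 reads of Lrp2 per PBS library stood behind these levels.

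The brush border peptidases among the 9 were lower than the enzymes above. Dpp4 (dipeptidyl peptidase 4, which clips dipeptides from incretins and other peptides; ENSMUSG00000035000, chromosome 2, 62160417 to 62242575, minus strand) had 0.742 ± 0.083 CPM per kb (SD, n = 3) in PBS. Anpep (aminopeptidase N; ENSMUSG00000039062, chromosome 7, 79471551 to 79510807, minus strand) had 0.277 ± 0.0053 CPM per kb (SD, n = 3), above 7.69% of tested genes, from 16, 21 and 21 reads. The spread of Anpep over the PBS libraries, a coefficient of variation of 1.91%, was smaller than the 22.7% that counting error alone gives at such counts, so its SD understates its error.

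Upstream sequence is shown for 4 of the genes, because they mark the extremes of the levels (Ass1 and Slc34a1) and the strongest responses to TNF (Ggt1 and Chdh). The bases come from RefSeq promoters on GRCm38.p6, a different build from that of the count table, and 15 promoters matched the 9 genes. From the 250 bases before each start, the longest stretch outside annotated exons is printed 5′ to 3′, with motif matches in capitals.
Slc34a1, chr13:55399398-55399647, plus strand: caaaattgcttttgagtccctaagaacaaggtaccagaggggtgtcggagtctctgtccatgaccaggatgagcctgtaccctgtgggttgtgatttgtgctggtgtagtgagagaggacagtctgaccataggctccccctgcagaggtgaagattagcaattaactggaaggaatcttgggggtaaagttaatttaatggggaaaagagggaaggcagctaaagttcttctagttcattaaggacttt
Ggt1, 1 of 4 annotated starts, chr10:75571310-75571525, plus strand: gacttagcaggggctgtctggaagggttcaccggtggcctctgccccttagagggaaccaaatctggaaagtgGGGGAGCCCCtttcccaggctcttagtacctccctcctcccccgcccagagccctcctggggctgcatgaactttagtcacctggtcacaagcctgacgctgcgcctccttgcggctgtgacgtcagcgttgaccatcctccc
Ass1, chr2:31470020-31470206, plus strand: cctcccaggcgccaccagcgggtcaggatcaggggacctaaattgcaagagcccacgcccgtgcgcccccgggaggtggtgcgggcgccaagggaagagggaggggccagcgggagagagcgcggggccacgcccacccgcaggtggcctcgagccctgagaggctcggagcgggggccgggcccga
Chdh, 1 of 3 annotated starts, chr14:30008897-30008999, plus strand: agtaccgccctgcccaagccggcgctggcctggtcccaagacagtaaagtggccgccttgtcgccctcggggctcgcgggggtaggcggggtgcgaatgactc

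These windows were searched on both strands for the HNF4 element CAAAGTCCA, the kappa-B motif and TATAAA. The Ggt1 window shown held a kappa-B match at -177 that fits the motif on both strands. It was the only kappa-B match in the 15 promoters of the 9 genes, and its use in these cells was not tested. Such a match is present in 7.25% of 32851 RefSeq promoters of the same length, and in the promoters of 8.23% of genes. The HNF4 element, present in 0.384% of promoters, was not found in the windows of these genes, and TATAAA, present in 12.4%, was found upstream of Dpp4 and of another Ggt1 start. The Ass1 window was rich in G and C (75.6%, with 23 CpG), that of Slc34a1 was not (46.4%, with 1 CpG), and the median over all promoters was 52.4%. The share of G and C was 82.0% and 48.8% at the 2 Slc4a4 starts, 54.8% to 60.4% at the 4 Ggt1 starts and 51.6% to 69.2% at the 3 Chdh starts. It was 72.8% for Anpep and 66.4% for Lrp2, but 43.6% for Dpp4 and 39.6% for Cubn, and no test was made of base composition against level. Which start the cells used was not measured.

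The other genes of the segment were mostly near 0, as a wider list shows. Of 59 further proximal tubule genes in the table, 8 had no read in any library, among them Slc22a6 (an organic anion transporter) and Miox (which degrades inositol), and 37 (those 8 included) had no more than 3 reads in any PBS library. Only 17 passed the filter. Pdzk1ip1 (a small membrane protein) was the highest at 34.7 CPM per kb, and the next, Cryl1, was at 2.97. Slc9a3, the apical sodium proton exchanger, had 1 to 3 reads per PBS library. The summed list was at 95.4 to 110.5 CPM in PBS.

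Regulators of the segment also spanned a wide range. Emx2, a factor of the developing kidney, was at 33.9 CPM per kb and Pax8, a renal lineage factor, at 19.4. Hnf4a, a factor of the mature proximal tubule, had 0 to 3 reads. Markers of injured tubule were high: Spp1 (osteopontin) reached 2775 CPM per kb, Clu (clusterin) 1275, and Havcr1 (KIM-1, an injury marker of the proximal tubule) 96.5. All 17 genes of that injury list passed the filter.

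**Figure D2:**
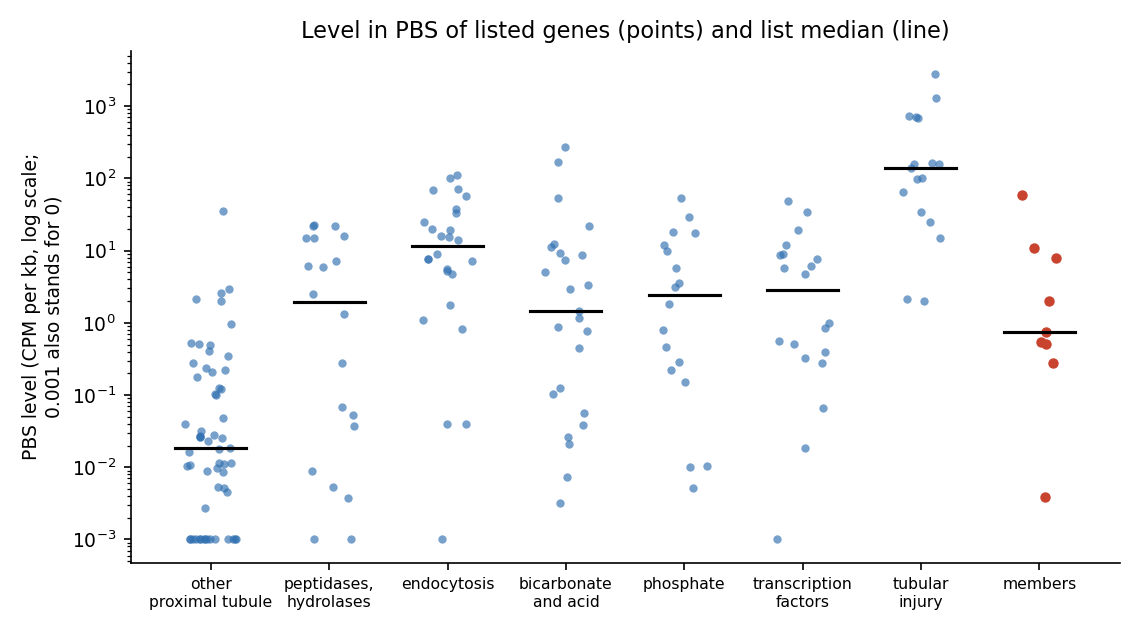
Level in PBS (mean of 3 libraries, CPM per kb, log axis) of each gene in 7 lists and of the 9 members, with the list median as a line; 0.001 also stands for 0. Further proximal tubule genes lie lowest, with Pdzk1ip1 at 34.7 as the highest, and the injury list lies highest, with Spp1 at 2775.

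The first comparison, TNF against PBS, asked what the cytokine does to these genes within 6 h. Ggt1 and Chdh fell, and no member rose. The means of Ass1 and Slc4a4, the most abundant members, differed from PBS by 3.49% and -3.38%. Of the 8 members tested, 2 were lower and 0 higher at an adjusted p under 0.05 (edgeR quasi-likelihood test, Benjamini-Hochberg over all genes), while 6.22% of all tested genes were called, 2.91% lower and 3.31% higher. The median log2 fold change of the 8 was -0.11, against -0.00 over all tested genes.

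Ggt1 gave 27.3, 26.5 and 28.0 CPM in PBS and 17.1, 18.6 and 19.7 CPM with TNF. All TNF libraries were below all PBS libraries. This is a log2 fold change of -0.57 (SE 0.07, edgeR adjusted p = 5e-05), a mean that fell by 32.5%. In bulk RNA, fewer cells of a type and less RNA per cell cannot be told apart, here and in the results that follow.

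Chdh gave 12.8, 12.6 and 11.8 CPM in PBS and 6.85, 7.78 and 7.48 CPM with TNF. The groups again did not overlap, and the fall was the largest of the members, with a log2 fold change of -0.75 (SE 0.12, edgeR adjusted p = 0.000392) and a mean that fell by 40.6%.

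Lrp2 gave 9.66, 7.07 and 8.48 CPM in PBS and 4.66, 6.39 and 6.91 CPM with TNF. The groups did not overlap, but the log2 fold change of -0.49 (SE 0.15) missed the threshold (edgeR adjusted p = 0.0619). It passed in 4 of 20 alternatives: without PBS replicate 2 (-0.60, adjusted p = 0.0327), with the neuron list as a covariate (-0.49, 0.0493), with no filter on low counts (-0.49, 0.0168), and with PBS replicate 1 as the only PBS library (-0.70, 0.0455), a fit that takes the spread of PBS from the other groups. It was smaller without TNF replicate 1 (-0.33, adjusted p = 0.312), without PBS replicate 1 (-0.39, 0.166) and with the term for neural libraries (-0.39, 0.164). Lrp2 was the third and last member without overlap between TNF and PBS, a pattern that 11.5% of tested genes showed in the lower direction.

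The remaining members did not pass. Ass1 gave 140.4, 144 and 139 CPM in PBS and 147, 142 and 149 CPM with TNF, a log2 fold change of 0.05 (SE 0.04, edgeR adjusted p = 0.592). Slc4a4 had a log2 fold change of -0.05 (SE 0.04) and Cubn of -0.17 (SE 0.14). For the peptidases the values were 0.14 (SE 0.15) for Dpp4 and 0.00 (SE 0.32) for Anpep. Ass1 and Slc4a4 had 1789 reads or more in each PBS and TNF library, whereas Anpep had 16 to 21, and at that depth only large changes of Anpep are detectable.

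**Figure D3:**
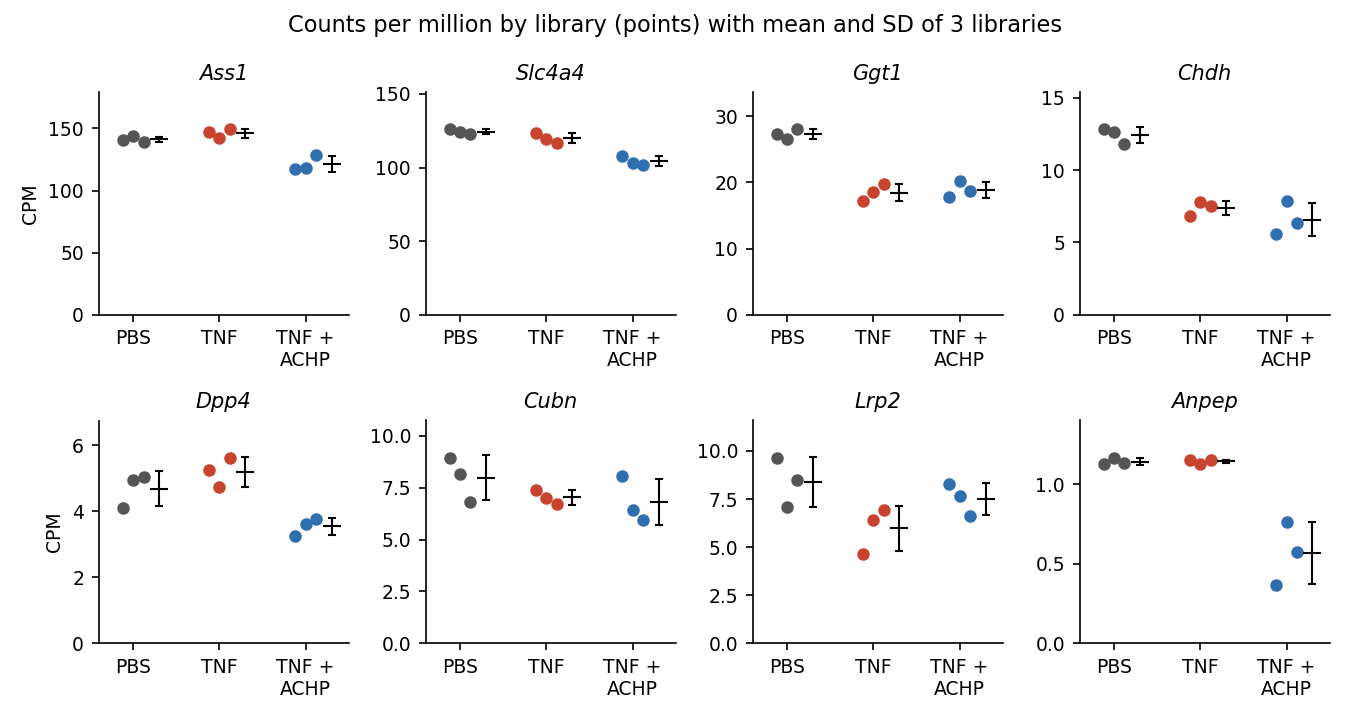
CPM of the 8 tested members in each library (points) with the mean and SD of the 3 libraries of a group (black), on linear axes that start at 0. Ggt1 and Chdh are lower in all TNF and all TNF with ACHP libraries than in any PBS library, while Ass1, Slc4a4, Dpp4 and Anpep are lowest with TNF and ACHP.

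Genes with roles next to those of the members behaved as follows with TNF. Of 12 tested brush border peptidases and hydrolases, 3 were lower and 0 higher, with a list median of -0.02. Enpep (aminopeptidase A, which trims angiotensin) fell by 0.56 on the log2 scale (edgeR adjusted p = 0.00446) and Tmprss2 (a membrane serine protease) by 0.42. Mme (neprilysin), the highest of the list at 22.8 CPM per kb, fell by 0.19, from 263 ± 2.1 to 231 ± 1.5 CPM (SD, n = 3). Of 20 tested genes of glutathione turnover, 4 were lower and 0 higher. Examples were Gpx3 (the secreted glutathione peroxidase, -0.35), Gstm1 (a glutathione transferase, -0.33) and Gclm (the regulatory subunit of glutathione synthesis, -0.22).

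Of 23 tested genes of the endocytic receptors and their machinery, 5 were lower and 0 higher with TNF, with a median of -0.05. Dab2, the adaptor that binds the megalin tail, fell by 0.38 (edgeR adjusted p = 0.000289) and Lrp1, a related receptor, by 0.34. Vldlr, a further receptor of the family, fell by 0.29. Amn (amnionless, the membrane anchor of cubilin) had 0 to 2 reads per PBS library and was not tested. The highest genes of this list per length in PBS were the trafficking genes Rab7 (112 CPM per kb) and Cltc (100.4 CPM per kb).

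Around Ass1, 1 of 16 tested genes of arginine metabolism rose and 1 fell. Slc7a2, an arginine transporter, rose from 1.28 to 3.51 CPM (log2 fold change 1.44, SE 0.24, edgeR adjusted p = 0.000852), while Slc7a1, a more abundant transporter of the same family, fell by 0.11. Asl, the enzyme that follows Ass1, was at 6.57 CPM per kb in PBS with a log2 fold change of 0.05. Around Chdh, 1 of 22 tested genes of choline and one-carbon metabolism rose (Mat2a, which makes S-adenosylmethionine, 0.17) and 2 fell (Chka, choline kinase, -0.30, and Slc44a2, a choline transporter-like protein, -0.18). Bhmt, which uses betaine, had 0 reads in every PBS library.

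Around Slc4a4, 3 of 18 tested genes of bicarbonate and acid transport rose and 3 fell with TNF. Car12, a membrane carbonic anhydrase, fell by 0.49, and the exchanger Slc9a2 rose by 0.36. Among 15 tested genes of phosphate handling, only Ank (a pyrophosphate transporter) passed, at -0.28. Slc20a1, a widely expressed phosphate transporter, was at 29.0 CPM per kb and Slc34a2, a relative of Slc34a1, at 3.09. Of 17 tested transcription factors, Lhx1 (-0.37) and Pax2 (-0.28) fell, both known from the developing kidney. Of 17 further proximal tubule genes tested, Aqp1 (a water channel, -0.99, edgeR adjusted p = 0.0269) and Pdzk1ip1 (-0.44) fell and Slc26a1 (a sulfate transporter, 0.49) rose.

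The second comparison, TNF with ACHP against TNF, asked which values the inhibitor moved. Ass1, Slc4a4 and Dpp4 fell with the inhibitor, and none of the members rose. Ggt1 and Chdh, which TNF had lowered, did not pass the test in either direction. Of the 8 tested members, 3 were lower and 0 higher, while 7.17% of all tested genes were called, 4.46% lower and 2.71% higher. The median log2 fold change of the 8 was -0.18, against 0.00 over all tested genes. This comparison shares its TNF libraries with the first.

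Ass1 gave 117, 118 and 129 CPM with TNF and ACHP, below all TNF libraries (142 to 149 CPM). This is a log2 fold change of -0.27 (SE 0.04, edgeR adjusted p = 0.000365), or a mean that fell by 17.0%. Slc4a4 gave 108, 103 and 102 CPM, below 124, 119 and 117 CPM with TNF, for a log2 fold change of -0.20 (SE 0.04, edgeR adjusted p = 0.00331). Both changes were small, and both were larger than the spread between libraries. With a term for the neural libraries the values were -0.26 for Ass1 and -0.24 for Slc4a4, neither of which passed (adjusted p = 0.142 and 0.17).

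Dpp4 gave 3.25, 3.62 and 3.76 CPM with TNF and ACHP and 5.26, 4.72 and 5.63 CPM with TNF, groups that did not overlap. This is a log2 fold change of -0.56 (SE 0.16, edgeR adjusted p = 0.0343). The call was lost without any single TNF or TNF with ACHP library (adjusted p = 0.0571 to 0.126, log2 fold change -0.50 to -0.62) and held without any single PBS library (adjusted p = 0.0269 to 0.039). DESeq2 gave an adjusted p of 0.105, and with the term for neural libraries the log2 fold change was -0.27 (adjusted p = 0.768). With that term, 0 of the 8 members were called in this comparison by edgeR. The SE of Dpp4 was then 0.29, and again only the PBS libraries separate the term from the inhibitor.

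Anpep gave 0.367, 0.762 and 0.573 CPM with TNF and ACHP, from 6, 16 and 9 reads, and 1.15, 1.13 and 1.15 CPM with TNF. The groups did not overlap and the mean fell by 49.1%, but at such counts the test did not pass (log2 fold change -0.98, SE 0.35, edgeR adjusted p = 0.107). Anpep passed the filter on low counts mainly through the PBS and TNF libraries. The 4 members without overlap in the lower direction were Ass1, Slc4a4, Dpp4 and Anpep, a pattern that 13.3% of tested genes showed. Because of how it passed the filter, Anpep adds no weight to this count.

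Ggt1 gave 17.8, 20.2 and 18.7 CPM with TNF and ACHP, inside and just above the range with TNF. This is a log2 fold change of 0.04 (SE 0.08, edgeR adjusted p = 0.814). Chdh gave 5.57, 7.86 and 6.30 CPM, around the TNF values, with a log2 fold change of -0.15 (SE 0.13). For Lrp2 the difference was 0.34 (SE 0.15, edgeR adjusted p = 0.207) with overlapping groups, and for Cubn -0.05 (SE 0.14).

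Markers of other cell types moved in the same comparison. The summed list of 14 macrophage genes was 48.3 to 50.2 CPM with TNF and 26.2 to 29.6 CPM with TNF and ACHP, and 9 of its 12 tested genes were lower. C1qa, a complement gene of macrophages, had 11 to 36 reads per TNF library and 1 to 3 with ACHP. None of the 14 was at 0 in all libraries, although Adgre1, Itgam and Mrc1 reached 0 in at least 1 library with ACHP. The fibroblast list of 12 genes was 736 to 760 CPM with TNF and 634 to 700 CPM with ACHP, with 4 of 11 tested genes lower. On the neuron list, 12 of 20 genes were lower. The part of these cell types in the lower values of Ass1, Slc4a4, Dpp4 and Anpep was not tested.

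**Figure D4:**
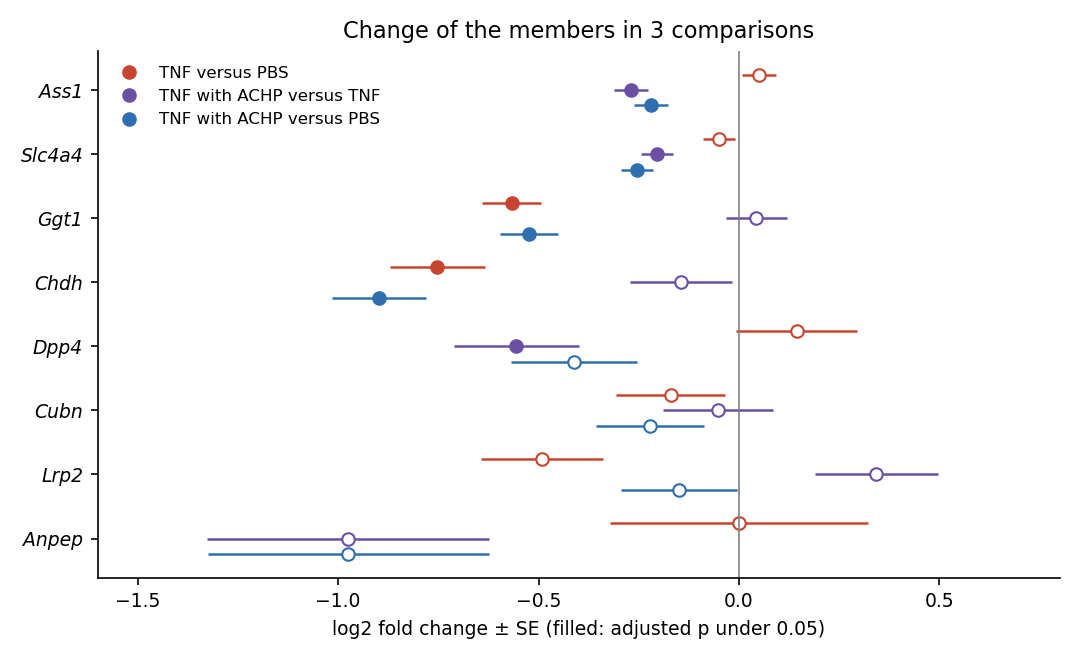
Log2 fold change with its SE for the 8 tested members in the 3 comparisons (edgeR), with filled points for an adjusted p under 0.05. Ggt1 and Chdh are filled in both comparisons with PBS, and Ass1 and Slc4a4 in both comparisons that hold the ACHP libraries.

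Neighbouring genes were mixed with ACHP. Slc7a2 fell by 1.56 on the log2 scale to 1.18 CPM (edgeR adjusted p = 0.000367). In the bicarbonate list 2 genes rose and 2 fell, among them Car2 (cytosolic carbonic anhydrase 2, -0.47) and Slc4a7 (a sodium bicarbonate cotransporter, -0.20). Vdr, the vitamin D receptor, fell by 0.39, and Pth1r, the parathyroid hormone receptor, by 0.20, as the 2 lower genes of 15 for phosphate handling. In the endocytic list 2 genes rose, among them Gipc1 (a partner of the megalin tail, 0.24). No gene of the brush border or glutathione lists passed. Of 17 further proximal tubule genes, 3 fell: Aadat (-1.74, from 9 to 21 reads per TNF library), Gda (-1.72) and Slc26a1 (-0.41). Among the transcription factors, Pax8 (0.18) and Sall1 (0.23) rose and Maf (-0.81) fell.

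The third comparison, TNF with ACHP against PBS, asked where the members stood after both agents. Ggt1, Chdh, Ass1 and Slc4a4 were lower than in PBS, and none was higher. Of the 8 tested members, 4 were lower, while 6.04% of all tested genes were called, 3.87% lower and 2.18% higher. The median log2 fold change was -0.33, against 0.00 over all tested genes. These values share the PBS libraries with the first comparison and the ACHP libraries with the second, and so are not independent of either.

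Chdh had the lowest value relative to PBS among the called members, with a log2 fold change of -0.90 (SE 0.12, edgeR adjusted p = 0.000117) and a mean that fell by 46.3%. Ggt1 followed with -0.52 (SE 0.07, adjusted p = 0.000191). Slc4a4 had -0.25 (SE 0.04, adjusted p = 0.000652) and Ass1 -0.22 (SE 0.04, adjusted p = 0.00301). The call of Ass1 was lost at nearly the same fold and a larger SE with the neuron list as a covariate (-0.22, SE 0.06, adjusted p = 0.124) and with the term for neural libraries (-0.21, SE 0.06, adjusted p = 0.119). It was also lost with PBS replicate 1 as the only PBS library (-0.21, SE 0.06, adjusted p = 0.0726), again with the spread taken from the other groups.

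Anpep (-0.98, SE 0.35, edgeR adjusted p = 0.116) and Dpp4 (-0.41, SE 0.16, adjusted p = 0.144) had no overlap with PBS but did not pass. In all, 6 members had all TNF with ACHP libraries below all PBS libraries, a pattern of 9.91% of tested genes. Anpep is among these 6 but adds no weight, as it passed the filter mainly through the PBS and TNF libraries. Lrp2 (-0.15, SE 0.14) and Cubn (-0.22, SE 0.13) overlapped with PBS. Against PBS, 8 of 12 macrophage genes and 6 of 11 fibroblast genes were lower too, with the fibroblast list at 821 to 934 CPM and the macrophage list at 44.8 to 47.4 CPM in PBS. Their part in these values was not tested. In PBS replicate 1, which had the neuron list level of the ACHP libraries, Ggt1 was at 27.3 CPM, Chdh at 12.8, Ass1 at 140.4 and Slc4a4 at 126. Dpp4 was at 4.09 CPM there, below the other PBS libraries (4.95 and 5.03) and above those with ACHP (3.25 to 3.76).

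Among the neighbours, Enpep (-0.51), Tmprss2 (-0.40) and Mme (-0.14) were lower than PBS, as were Dab2 (-0.43), Lrp1 (-0.55) and Myo6 (a motor of apical endocytosis, -0.23). In the endocytic, glutathione, choline and bicarbonate lists 1 gene each was higher, while 3, 3, 0 and 2 were lower. The higher genes included Slc9a2 (bicarbonate list, 0.23), Slc1a5 (glutathione list, 0.22) and Mthfd2 (choline and one-carbon list, 0.18). Kl (klotho, a co-receptor for the phosphate hormone FGF23) was lower by a log2 fold change of -0.87 (SE 0.16, edgeR adjusted p = 0.00212) and Vdr by -0.46. Of 17 further proximal tubule genes, Gda, Pdzk1ip1 (-0.26) and Ttr were lower. Ttr had 0 to 145 reads per PBS library, a wide spread within that group, and 0 to 3 with ACHP. Of the arginine genes none passed in either direction by edgeR (0 of 16), Slc7a2 included.

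The members did not share a single course over the 9 libraries. Among the 10511 or 10512 genes with a mean of at least 5 CPM, the one closest to Slc4a4 was Vdr (Pearson r = 0.99 of log2 CPM over 9 libraries). Closest to Ggt1 were Fam199x and Limk2 (both r = 0.98) and Thbs1 (r = 0.97). Ass1 and Dpp4 had 2 of their 3 nearest genes in common, Lgals3 (r = 0.97 and 0.94) and A730020M07Rik (r = 0.94 and 0.96). Chdh was nearest to Efemp1, Frem2 and Erbb4 (each r = 0.96), and Anpep to Cox10 and Cers4 (both r = 0.97) and Lyz2, a macrophage gene (r = 0.96). Lrp2 (Fam98a, r = 0.93) and Cubn (Cspp1, r = 0.96) had other neighbours again. These correlations describe libraries that share groups and treatments, and they were the highest of many.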

How the data were processed

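Total RNA of 9 libraries was sequenced, in 3 groups of 3 taken from the sample titles. Reads were aligned with STAR, counted with featureCounts and analysed with DESeq2, per the submitters' processing notes. The deposited values are raw counts per Ensembl gene, made by featureCounts 2.0.1 on Ensembl 109 for GRCm39, per the file headers. The notes name mm10 instead, but 7 of the 9 members' intervals do not overlap their GRCm38 positions. At the default settings shown there, reads that overlap several genes are left out and strand is ignored. Symbols were matched for 52029 of 57010 identifiers, with 99.6% of counts, and for 378 of 381 list genes.

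The counts were fitted in R 4.3.3 with edgeR 4.0.16 (filterByExpr, 14747 genes kept; TMM factors 0.993 to 1.01; quasi-likelihood, a mean per group, all libraries; coefficient of variation 4.01%). A call needed a Benjamini-Hochberg adjusted p under 0.05, over the whole table. This fit was checked on simulated counts. Alternatives were DESeq2 1.42.0, other scaling, filters, thresholds and covariates, the replicate number as a block, and leaving out each library. After seeing the data, a term for the neural libraries and a fit that kept only replicate 1 of PBS were added. The members and lists were chosen with earlier results of these data known. The text names all members, from each list at most 3 genes per comparison (called, by size of change) and the 3 highest in PBS, and the 3 nearest genes of each member by Pearson r. Other list genes named for their role were chosen after their values were seen. Some results that this rule selects are not reported here.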

Additional observations from a re-analysis of the deposited data

How the results depend on the processing

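The calls of Ggt1 and Chdh against PBS, with and without ACHP, and of Slc4a4 with TNF and ACHP against PBS held in all 20 alternatives run. Of 480 member values under alternatives, 461 stayed on their side of the threshold, 15 lost a call, 4 gained one and 0 called values changed direction. For genes called over the whole table, TNF versus PBS gave 917, with 442 at an adjusted p under 0.01 and 418 with PBS replicate 1 as the only PBS library, and 468 to 957 when 1 library was left out (fewest without TNF replicate 1). TNF with ACHP versus TNF gave 1058, with 269 under the neuron list covariate, 468 at an adjusted p under 0.01, 143 with the neural library term, and 541 to 1327 when 1 library was left out (fewest without TNF replicate 2); with the neural library term 0 members were called there. TNF with ACHP versus PBS gave 891, with 493 in a fit of only the 6 libraries compared, 130 under the neuron list covariate, 427 at an adjusted p under 0.01, 162 with the neural library term, 237 with PBS replicate 1 as the only PBS library, and 494 to 988 when 1 library was left out (fewest without TNF with ACHP replicate 3). Apart from PBS replicate 1, the neuron list covariate and the neural library term nearly follow the ACHP group. Those fits therefore had larger SEs: for Ass1 in TNF with ACHP versus TNF 0.06 and 0.08, against 0.04 in the main fit. The cause of the other shifts was not tested beyond the stricter threshold and the smaller number of libraries. No pairing by replicate number is given in the sources used here, and correlations of deviations from the group means were too few and weak to decide it. Same-numbered PBS and TNF libraries correlated at 0.17, 0.17 and -0.01, and differently numbered PBS and TNF libraries at -0.21 to 0.12. The other same-numbered pairs were at -0.10 to 0.03, and differently numbered pairs of all groups ranged from -0.21 to 0.17. With the replicate block 945, 1175 and 988 genes and 2, 3 and 4 members were called in the 3 comparisons. Depth limits Anpep, with 6 to 21 reads per library, and Slc34a1, for which no change could be detected.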
